A study of Homo sapiens with 6 samples.

Results

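The genes described here are 45 genes of the G1/S transition and of DNA replication, in SACC-83 cells with and without overexpression of a circular RNA. They were taken as the rows of the deposited expression table whose symbol is on a list of 45 names. All 45 were found, each once, among 27328 loci, and all 45 passed the filter on low values that left 12064 loci for testing. The human cell line SACC-83 is long established and labelled as salivary adenoid cystic carcinoma cells. Of the 6 RNA-seq libraries, 3 are vector controls with the genotype label WT, and 3 carry circMYBL1 overexpression; this circular RNA takes its name from the gene MYBL1. The genotype labels of the overexpression libraries read circMYBL1, circMYBL2 and circMYBL3 for replicates 1, 2 and 3, whereas the series design names circMYBL1 alone. They were treated as 3 replicates of 1 group, which these labels leave uncertain. The labels give no treatment, no time point, no vector type and no word on clones or pools. They do not say whether libraries of a group came from separate cultures, so that the p-values measure only how far these libraries differ, and that may be technical. Both groups carry the replicate numbers 1, 2 and 3, and what a number stands for is not stated.

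Levels are the authors' FPKM (fragments scaled by gene length and by library total), a unit per length that allows levels of different genes to be set side by side. Read depth is unknown from these values. The row of the host gene MYBL1 lay at 7.15 to 10.3 FPKM in the vector libraries and at 359, 44.0 and 2025 FPKM in overexpression replicates 1, 2 and 3, above every vector library; no row was matched to the circular RNA itself. The epithelial genes EPCAM, KRT8 and KRT18 were present in every library (EPCAM 76.3 to 88.5 FPKM), CDH1 lay at 8.61 to 21.3 FPKM and KRT19 at 0.243 to 1.10 FPKM, while KIT, a marker of adenoid cystic carcinoma, was listed at 0 in all 6. MYB lay at 0.688 to 1.21 FPKM, NFIB at 0.932 to 2.44 FPKM and SOX10 below 1 in each. Of the leukocyte markers, PTPRC, CD3E and LYZ were listed at 0 throughout, and CD68 lay at 6.49 to 10.8 FPKM. The 45 genes together made up 0.417% to 0.469% of the summed FPKM of a library.

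Before a cell copies its DNA, the origin recognition complex and CDC6 load the ring of MCM2 to MCM7 on chromatin in G1. Cyclin E with CDK2 and the kinase DBF4-CDC7 then start replication, when CDC45 and the GINS complex join the ring to form the active helicase. Many of these genes are known targets of E2F transcription factors, which the retinoblastoma family holds back until G1 cyclin-dependent kinases inactivate it. Their transcripts peak at G1/S or in S phase, so that in proliferating cell lines their levels are commonly read as a sign of cycling. In bulk RNA, fewer cells in S phase and less RNA per cell cannot be told apart.

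Because E2F binding sites are the best known shared control element of these genes, RefSeq promoter windows (GRCh38.p14, 250 bases before to 50 after a transcript start) were searched for 3 motif families on both strands. The E2F-type letters searched were TTTGGCGC, TTTCGCGC, TTTCCCGC and TTCCCGCC, which can overlap one another. The CCAAT box was searched as CCAAT, and the CHR element, known from mitotic promoters, as TTTGAA or TTCGAA. Of the 45 genes, 36 matched the table, with 49 windows. The windows below belong to 3 genes that were lower and 3 that were higher in the libraries numbered 2 (values follow), and capitals mark E2F-type matches, overlapping ones as 1 run. These genes had the largest difference per direction among called genes with such a match, so every window shown holds a match by choice. TIPIN has another window, without a match, that is not shown. The windows are given so that the letters behind the motif counts can be read. All lie on the minus strand but HELLS, and each is written 5′ to 3′ on the strand of its gene. TIPIN stands at chr15:66356636-66356935, GINS2 at chr16:85688905-85689204 and CLSPN at chr1:35769929-35770228. MCM6 stands at chr2:135876394-135876693, HELLS at chr10:94545538-94545837 and E2F1 at chr20:33686336-33686635.
TIPIN: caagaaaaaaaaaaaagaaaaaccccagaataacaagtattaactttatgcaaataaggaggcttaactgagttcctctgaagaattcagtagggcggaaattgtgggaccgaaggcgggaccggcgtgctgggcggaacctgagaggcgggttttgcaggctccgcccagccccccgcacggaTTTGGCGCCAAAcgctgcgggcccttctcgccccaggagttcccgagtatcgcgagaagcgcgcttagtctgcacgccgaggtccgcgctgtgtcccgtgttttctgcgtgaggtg
GINS2: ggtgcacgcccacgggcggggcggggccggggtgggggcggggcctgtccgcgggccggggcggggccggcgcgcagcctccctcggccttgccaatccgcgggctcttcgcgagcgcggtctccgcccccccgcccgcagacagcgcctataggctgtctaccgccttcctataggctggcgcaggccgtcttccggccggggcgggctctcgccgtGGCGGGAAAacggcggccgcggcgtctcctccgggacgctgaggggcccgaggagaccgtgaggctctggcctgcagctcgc
CLSPN: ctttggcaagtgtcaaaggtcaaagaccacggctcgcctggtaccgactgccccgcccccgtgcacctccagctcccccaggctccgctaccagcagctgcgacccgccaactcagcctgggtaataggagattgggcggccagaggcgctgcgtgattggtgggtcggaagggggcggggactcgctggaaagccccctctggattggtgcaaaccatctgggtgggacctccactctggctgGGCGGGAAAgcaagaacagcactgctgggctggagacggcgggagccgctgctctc
MCM6: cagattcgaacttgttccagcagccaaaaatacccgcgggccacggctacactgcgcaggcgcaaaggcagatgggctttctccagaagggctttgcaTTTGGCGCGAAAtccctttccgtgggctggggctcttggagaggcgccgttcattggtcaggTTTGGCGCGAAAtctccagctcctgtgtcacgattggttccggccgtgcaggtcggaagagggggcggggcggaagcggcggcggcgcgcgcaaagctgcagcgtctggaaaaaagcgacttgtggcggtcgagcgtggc
HELLS: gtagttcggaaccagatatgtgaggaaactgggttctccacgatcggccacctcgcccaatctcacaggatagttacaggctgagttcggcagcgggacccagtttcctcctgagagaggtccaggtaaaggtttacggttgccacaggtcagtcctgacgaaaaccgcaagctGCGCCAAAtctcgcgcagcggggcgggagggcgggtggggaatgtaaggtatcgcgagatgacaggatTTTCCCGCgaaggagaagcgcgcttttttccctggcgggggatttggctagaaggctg
E2F1: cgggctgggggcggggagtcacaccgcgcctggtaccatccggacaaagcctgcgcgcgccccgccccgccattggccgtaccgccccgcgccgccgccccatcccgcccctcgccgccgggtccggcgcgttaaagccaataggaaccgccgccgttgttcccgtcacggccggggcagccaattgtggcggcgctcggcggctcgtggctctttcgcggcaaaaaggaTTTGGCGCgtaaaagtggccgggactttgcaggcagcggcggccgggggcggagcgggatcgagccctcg

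An E2F-type match was found in 28 of the 49 windows, or 57.1%, and in 27 of the 36 matched genes. The same letters were found in 5.03% of all 35116 windows of the table and in 7.87% of the windows of tested genes. Among windows of 36 other replication genes the share was 33.3%, and among those of 36 G2 and mitosis genes 13.5%. The CCAAT box was found in 67.3% of the windows of the 45 genes, against 34.6% of all windows. CHR letters were in 10.2% of the windows of the 45 genes, near the 11.6% of the windows of tested genes. The share was 16.4% for all windows and 78.4% for the windows of the G2 and mitosis genes. All 7 windows of genes called higher in the number 2 libraries held an E2F-type match, as did 7 of 18 windows of genes called lower, or 7 of 11 such genes. For members not called for number 2 these were 14 of 24 windows and 13 of 18 genes. Whether matches go with direction was not tested. The windows printed for TIPIN, GINS2, CLSPN and E2F1 each hold 1 run of letters, and those for MCM6 and HELLS hold 2, as does 1 window each of MCM7 and BLM, which were lower. RRM2, the gene with the largest difference, has 2 windows, and neither holds these letters. A match describes the letters only, and no binding was measured.

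**Figure D1:**
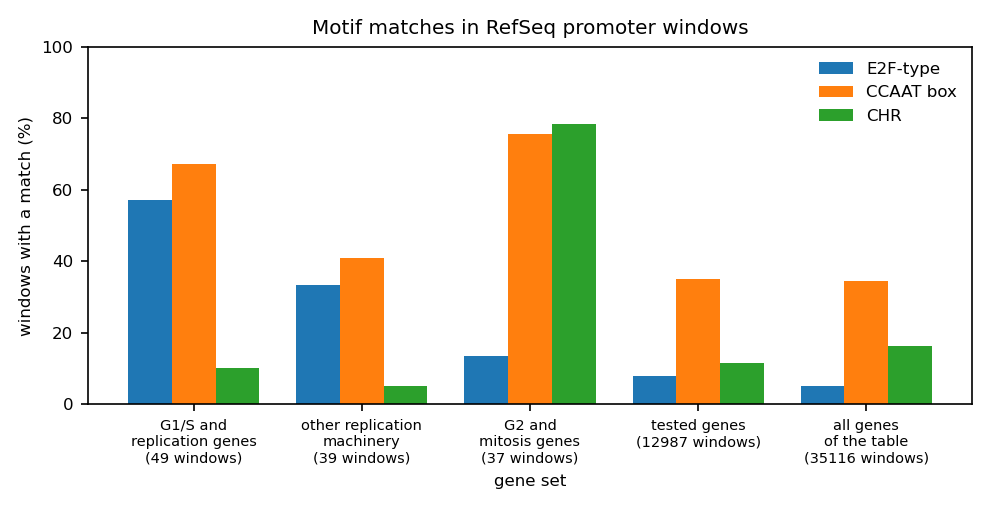
Share of RefSeq promoter windows (percent, vertical axis) with at least 1 match to the E2F-type, CCAAT or CHR letters, for 5 gene sets (horizontal axis). The E2F-type bar of the G1/S and replication genes stands at 57.1% and that of all windows at 5.03%, while the CHR bar is high in the G2 and mitosis genes at 78.4%.

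Overexpression was compared with vector first. None of the 45 genes was called in this comparison: limma on log2(FPKM + 1), with Benjamini-Hochberg adjustment over all 12064 loci, gave 0 members at an adjusted p under 0.05, against 0.0% of all loci tested. At an unadjusted p under 0.05 the counts were 0 members and 65 loci. The point estimates were above 0 for 29 genes (64.4%, beside 58.1% of all loci) and below 0 for 16. Their median was 0.04 log2 units, beside 0.03 over all loci. With replicate number as a block, 12 loci (0.0995%) were called and again 0 members. The member with the smallest p there was RRM2, with 0.24 log2 units, an unadjusted p of 0.021 and an adjusted p of 0.617 by limma. Leaving out any 1 library, or both libraries of 1 number in the blocked fit, also gave 0 member calls.

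The groups overlapped for 44 of the 45 genes. No gene had all overexpression libraries above all vector libraries, a pattern shown by 2.5% of all loci, and 1 gene had all below, a pattern of 0.845% of loci. That gene was USP1, the deubiquitinase of PCNA and of the Fanconi anaemia protein FANCD2. USP1 lay at 39.4, 39.98 and 40.2 FPKM in vector replicates 1 to 3 and at 33.6, 36.8 and 39.2 FPKM in the overexpression replicates. The distance between overexpression replicate 3 and vector replicate 1 was thus small, and the difference of -0.12 ± 0.12 log2 units (SE) had an adjusted p of 1.0 by limma. Without overexpression replicate 3, 4 genes (8.89%) had all overexpression libraries above the vector libraries, beside 7.84% of all loci. Without vector replicate 2 or overexpression replicate 2, 2 genes (4.44%) had all below, beside 6.05% and 5.19% of loci.

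Library by library, overexpression replicate 1 stood above vector replicate 1 for 31 of 45 genes, with a median of 0.09 log2 units. Overexpression replicate 2 stood above vector replicate 2 for 30, with a median of 0.04, and replicate 3 above its counterpart for 19, with a median of -0.01. The medians over all loci were 0.06, 0.04 and -0.03, close to those of the 45 genes in each pair. Of all loci 59.0%, 58.9% and 42.0% stood higher in overexpression, beside 68.9%, 66.7% and 42.2% of the 45 genes. In all 3 pairs, 7 members were higher in overexpression (15.6%, beside 16.5% of all loci) and 3 were lower (6.67%, beside 11.9%). The sign of single pairs carries no test.

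Replicate number went with differences in many genes of the table, these 45 among them. It was called by limma's F-test for 24 of the 45 genes, with group in the model, where 46.5% of all loci were called. Earlier results of these data had set the libraries numbered 2 apart, so number 2 was compared with the mean of numbers 1 and 3. In that comparison 23 members were called, or 51.1%, against 50.3% of all loci, which is near the background. By direction, 9 members (20%) were called higher in the number 2 libraries, against 29.4% of loci, and 14 (31.1%) were called lower, against 21.0%. The median of the 45 genes was -0.09 log2 units and that of all loci 0.07. Both number 2 libraries lay above the other 4 for 11 genes (35.9% of all loci) and below them for 16 (25.7%).

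How many genes lay on each side of 0 moved with the scaling. With trimmed mean factors computed directly on FPKM (TMM), the median of all loci for number 2 shifted by -0.15 to -0.08, and 4 members were called higher and 22 lower, where loci were split 2468 higher and 3912 lower in place of 3545 and 2528. With TPM (each library rescaled to the same sum) 14394 loci passed the filter, so that the set of loci changed along with the scale; their median was higher by 0.11, with 9 members called higher and 12 lower and 4807 against 2225 loci. Quantile scaling gave 8 members higher and 14 lower, and 2820 against 3055 loci. The median of the 45 genes lay below that of all loci by 0.16 log2 units as reported; its distance to all loci was -0.18 with TMM, -0.19 with TPM and -0.02 with quantile scaling.

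The calls for number 2 rest on 2 libraries. They also depend on the libraries set against them. With both number 1 libraries left out, 9 members were called higher and 8 lower, beside 3140 and 2251 loci. CASP8AP2, CCNE2, CDC45, FEN1, MCM7, PRIM1, RPA2 and SLBP then lost the call. Without vector replicate 2, 2 members were called higher and 4 lower, beside 2166 and 1405 loci. Without overexpression replicate 2 these were 4 and 7, beside 2514 and 1971 loci, and without vector replicate 3 they were 6 and 8, beside 3024 and 1994. The F-test called 9 members (20%) without vector replicate 2, beside 30.4% of loci. RRM2, DSCC1, TIPIN, GINS2 and E2F1 were called under each of 18 alternatives, and all 23 genes kept their sign under each. Number 3 against number 1 called 0 members by limma, where 0.547% of loci were called; 12 members (26.7%) had an unadjusted p under 0.05, beside 18.9% of loci. Its point estimates were lower in number 3 for 34 of 45 genes (75.6%), beside 44.6% of loci. Of the markers of myoepithelial or basal cells, TP63, KRT5, KRT14 and ACTA2 were highest in both libraries numbered 2, while CNN1 was not. The 5 together summed to 494 FPKM in vector replicate 2 and 417 FPKM in overexpression replicate 2, of which KRT5 gave 412 and 347 FPKM. In the other 4 libraries the sum lay between 131 and 178 FPKM. CNN1 was below 1 FPKM in every library. The fibroblast marker sum, nearly all COL1A1 with COL1A2 listed at 0, was 8.88 and 11.2 FPKM in the number 2 libraries and 3.07 to 4.70 FPKM in the others. The endothelial sum (PECAM1, VWF and CDH5) was 1.38 and 1.71 against 0.10 to 0.29 FPKM. Their part in the result was not tested.

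**Figure D2:**
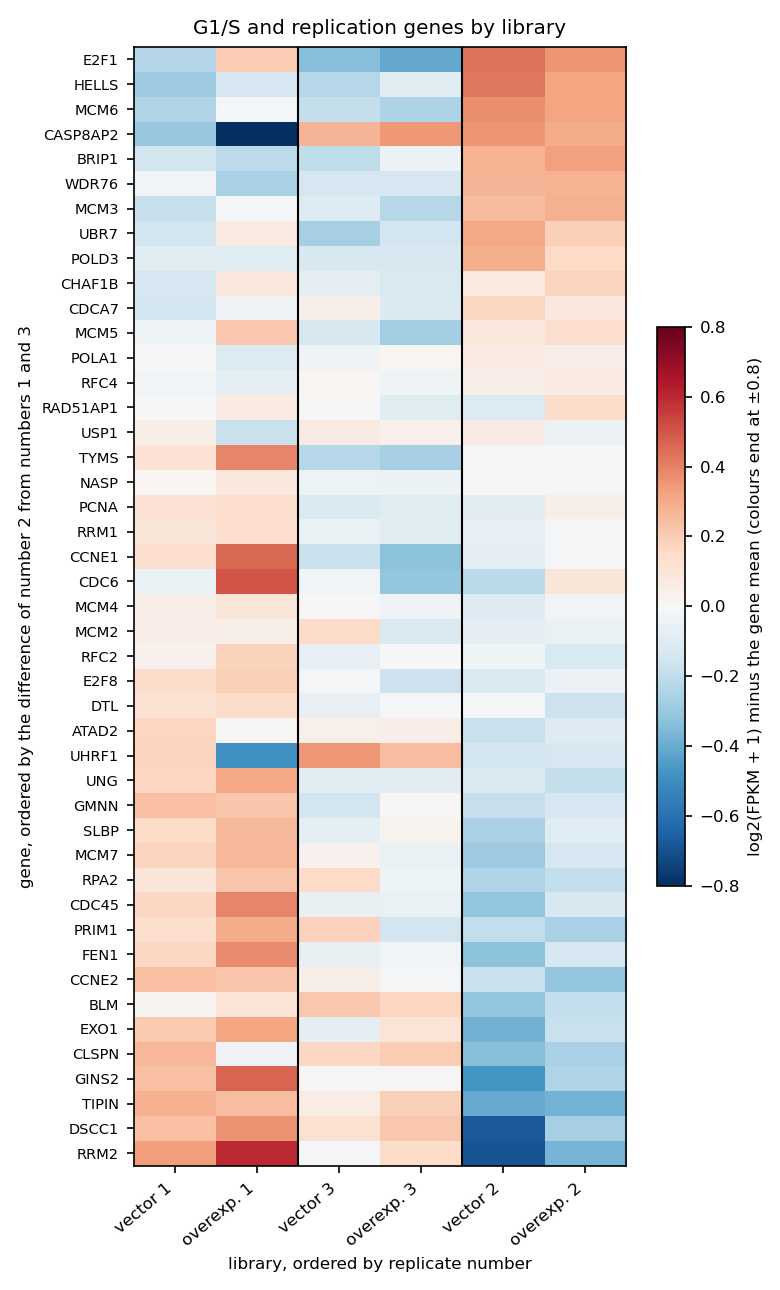
Level of each of the 45 genes (vertical axis, ordered by the number 2 difference) in each library (horizontal axis, ordered by replicate number), as log2(FPKM + 1) minus the mean of that gene over the 6 libraries, with colours ending at plus and minus 0.8. E2F1, HELLS and MCM6 at the top are high, and RRM2, DSCC1 and TIPIN at the bottom low, in both libraries numbered 2; no block of rows sets the 3 overexpression libraries apart from the 3 vector libraries.

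The MCM2 to MCM7 ring, the core of the replicative helicase, showed unequal differences between its subunits. MCM7 was the most abundant subunit, with 190.8, 137.3 and 172.8 FPKM in vector replicates 1 to 3 and 202.6, 153.2 and 162.2 FPKM in overexpression. MCM6 was among the least abundant, with 22.7, 35.1 and 23.5 FPKM in vector and 26.7, 33.7 and 22.5 FPKM in overexpression. MCM7 was thus lowest and MCM6 highest in the 2 libraries numbered 2, whatever the group, and the groups overlapped for both. MCM6 was higher in number 2 by 0.52 ± 0.11 log2 units (SE), with an adjusted p of 0.003, and MCM7 was lower, at -0.32 ± 0.10, with an adjusted p of 0.019 (limma). The ratio of MCM7 to MCM6 was 3.91 and 4.55 in the number 2 libraries of vector and overexpression, and 7.22 to 8.42 in the other 4.

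MCM3 lay at 54.4, 74.2 and 57.8 FPKM in vector replicates 1 to 3 and at 61.3, 75.8 and 52.8 FPKM in overexpression. It was higher in number 2 by 0.40 ± 0.10 log2 units, with an adjusted p of 0.008 by limma. The remaining subunits were not called. MCM2 ranged from 97.2 to 117.6 FPKM with vector 109.5, 99.8 and 117.6 and overexpression 109.0, 101.5 and 97.2. MCM4 lay at 72.5, 65.1 and 70.0 FPKM in vector and 74.9, 68.8 and 68.7 FPKM in overexpression. MCM5 lay at 29.9, 32.6 and 28.0 FPKM in vector and 35.8, 33.7 and 25.2 FPKM in overexpression. The groups overlapped for MCM2, MCM4 and MCM5. Both number 1 libraries lay above the other 4 for MCM4, and both number 3 libraries lay below the other 4 for MCM5, while no number stood apart for MCM2. The sign of their number 2 differences (-0.10, -0.09 and 0.16) turned with quantile scaling for MCM2 (0.04) and MCM4 (0.04) and with TMM for MCM5 (-0.01). MCM7 ranked first and MCM2 next in all 6 libraries. MCM4 stood above MCM3 and MCM5 above MCM6 in the 4 libraries numbered 1 or 3, and both orders were exchanged in the 2 libraries numbered 2. Without vector replicate 2 the adjusted p was 0.0506 for MCM6, 0.0601 for MCM3 and 0.276 for MCM7. MCM3 reached 0.0565 without overexpression replicate 2, and MCM7 0.0548 without vector replicate 3. MCM7 also lost the call with quantile scaling (-0.16, adjusted p = 0.133 by limma) and without the filter on low values (adjusted p = 0.0568). MCM3 lost it with TMM (0.23, adjusted p = 0.0506 by limma).

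In the group comparison the 6 subunits lay between -0.08 (MCM2) and 0.05 log2 units (MCM7), with 5 estimates above 0. MCM2 was the 1 subunit below 0, at -0.08 ± 0.13 (SE) with an adjusted p of 1.0 by limma; vector replicate 3 (117.6 FPKM) and overexpression replicate 3 (97.2 FPKM) were the highest and lowest libraries, and in the blocked fit without both of them the estimate was 0.01.

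**Figure D3:**
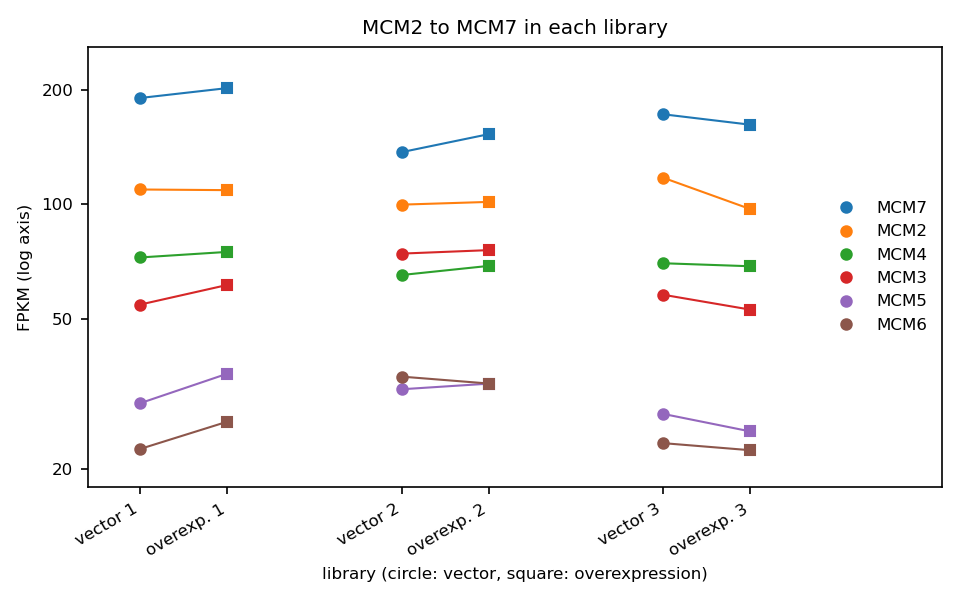
FPKM of MCM2 to MCM7 on a log axis (vertical) in each library (horizontal; circles are vector and squares are overexpression, with lines joining libraries of the same number). The lines of MCM3 and MCM4, and of MCM5 and MCM6, change places in the libraries numbered 2, where MCM6 stands at 35.1 and 33.7 FPKM.

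Among the genes that load and activate the helicase, CDC6 and GMNN act at loading, GMNN (geminin) as the inhibitor of the loading factor CDT1, and CDC45 and GINS2 complete the active helicase. GINS2 lay at 17.0, 9.91 and 14.3 FPKM in vector replicates 1 to 3 and at 20.01, 11.9 and 14.3 FPKM in overexpression. Both number 2 libraries were below the other 4, with a difference of -0.54 ± 0.11 log2 units (SE) and an adjusted p of 0.002 by limma. CDC45 was also lower, with means of 27.3, 19.0 and 21.4 FPKM for numbers 1, 2 and 3 (-0.33 log2 units, adjusted p = 0.021 by limma, 0.216 if vector replicate 2 is left out, 0.106 if overexpression replicate 2 is and 0.0825 if vector replicate 3 is). GMNN was not called for number 2 (-0.24 log2 units, adjusted p = 0.060 by limma), but was called for replicate number (adjusted p = 0.033 by limma's F-test).

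CDC6 had the largest positive group estimate of the 3 genes named for the smallest p in that direction. Its vector libraries lay at 37.8, 33.6 and 38.7 FPKM and its overexpression libraries at 56.2, 42.1 and 31.5 FPKM. Overexpression replicate 1 was the highest and overexpression replicate 3 the lowest of all 6. The estimate of 0.20 ± 0.22 log2 units (SE) had an adjusted p of 1.0 by limma. It was -0.01 without overexpression replicate 1 and -0.21 with library weights.

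The genes of the replication fork are PCNA, the sliding clamp, its loader subunits RFC2 and RFC4, the single-strand binding subunit RPA2, POLA1 and PRIM1 of the polymerase that starts each strand, POLD3 of the lagging-strand polymerase and FEN1, the flap nuclease. PCNA was the most abundant gene of the 45 by its mean, at 185.9, 161.5 and 157.7 FPKM in vector replicates 1 to 3 and 187.7, 177.1 and 160.3 FPKM in overexpression. Its range was narrow in both groups and it was not called for number 2 (-0.03 log2 units). FEN1 lay at 70.4, 49.7 and 60.0 FPKM in vector and 81.7, 57.0 and 61.7 FPKM in overexpression, lowest in the number 2 library of each group. FEN1 was lower in number 2, at -0.35 ± 0.10 log2 units (SE), with an adjusted p of 0.013 by limma. With both number 1 libraries left out its difference was -0.19 log2 units (adjusted p = 0.166 by limma). PRIM1 (-0.34, adjusted p = 0.038) and RPA2 (-0.33, adjusted p = 0.025) were also lower, and POLD3 (0.34, adjusted p = 0.020) was higher, all by limma. By limma's F-test for replicate number none of them was called (adjusted p = 0.062, 0.057 and 0.053). RFC2, RFC4 and POLA1 were not called, with differences between -0.12 and 0.09 log2 units. Without vector replicate 2 the adjusted p was 0.166 for FEN1, 0.178 for PRIM1, 0.218 for RPA2 and 0.297 for POLD3. Without overexpression replicate 2 these were 0.0669, 0.129, 0.0921 and 0.0882. PRIM1, RPA2 and POLD3 also lost the call without vector replicate 3 (0.151, 0.0956 and 0.0693), and PRIM1 without overexpression replicate 1 (0.0727). In the group comparison FEN1 had 0.15 ± 0.20 log2 units (SE, adjusted p = 1.0 by limma), which became -0.003 without overexpression replicate 1.

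Deoxynucleotides for the fork come from ribonucleotide reductase, whose large subunit is RRM1 and whose S-phase small subunit is RRM2, and from thymidylate synthase, TYMS. RRM2 (chr2:10120698-10131419, GRCh38, plus strand) lay at 84.7, 41.1 and 66.1 FPKM in vector replicates 1, 2 and 3. In overexpression it lay at 101.5, 51.5 and 74.0 FPKM. Both number 2 libraries were the lowest and both number 1 libraries the highest, and overexpression exceeded vector within each number. RRM2 was lower in number 2, at -0.80 ± 0.09 log2 units (SE), a ratio of 0.576 on the log2(FPKM + 1) scale, with an adjusted p of 0.00013 by limma. In the group comparison its estimate was 0.24 ± 0.33 (SE), with an adjusted p of 1.0 by limma. RRM1 ranged only from 115.8 to 136.0 FPKM, and its number 2 difference of -0.06 log2 units was not called. TYMS lay at 49.9, 45.8 and 39.2 FPKM in vector and at 60.8, 45.9 and 38.1 FPKM in overexpression, highest in number 1 and lowest in number 3 of each group. TYMS was called for replicate number (adjusted p = 0.020 by limma's F-test) and not for number 2 against the others. Exons of ENOSF1 on the opposite strand cover 39.1% of its exon bases, and the use of strand in counting is not stated.

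The 4 control genes are the G1/S cyclins CCNE1 and CCNE2, the activator E2F1 and the repressor E2F8. E2F1 (chr20:33675683-33686404, GRCh38, minus strand) lay at 20.9, 33.7 and 19.3 FPKM in vector replicates 1 to 3 and at 28.7, 31.8 and 18.3 FPKM in overexpression. Both number 2 libraries were above the other 4, though overexpression replicate 1 came close. E2F1 was higher in number 2 by 0.59 ± 0.13 log2 units (SE), with an adjusted p of 0.004 by limma. CCNE2 lay at 16.5, 12.1 and 14.3 FPKM in vector and at 16.2, 10.9 and 13.6 FPKM in overexpression, lowest in number 2 of each group (-0.37 ± 0.10 log2 units, SE, adjusted p = 0.013 by limma). The CCNE2 call was lost without vector replicate 2 (0.0888) or overexpression replicate 2 (0.173), and INTS8 on the opposite strand, at 13.4 FPKM, shares 37.0% of its exon bases. CCNE1 lay at 7.94, 6.75 and 6.21 FPKM in vector and at 10.2, 7.06 and 5.49 FPKM in overexpression. CCNE1 was called for replicate number (adjusted p = 0.028 by limma's F-test), highest in number 1 and lowest in number 3 of each group. The CCNE1 difference for number 2 was -0.07 log2 units and was not called. E2F8 was low throughout, with 3.62, 2.84 and 3.15 FPKM in vector and 3.77, 3.03 and 2.72 FPKM in overexpression, and was not called. The groups overlapped for all 4, with group estimates between -0.07 and 0.09 log2 units.

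Checkpoint and repair genes held 5 of the 14 lower calls. That is 5 of the 10 genes in this role, where 21.0% of all loci were called lower. DSCC1, a subunit of the alternative clamp loader for sister chromatid cohesion, lay at 12.2, 6.03 and 11.2 FPKM in vector replicates 1 to 3 and at 13.4, 8.33 and 12.0 FPKM in overexpression. TIPIN, the partner of TIMELESS in fork protection, lay at 11.1, 6.53 and 9.38 FPKM in vector and at 10.8, 6.68 and 10.4 FPKM in overexpression. For both genes the number 2 libraries were the lowest in each group and below all 4 others. DSCC1 was lower in number 2, at -0.70 ± 0.11 log2 units (SE, adjusted p = 0.0007), and TIPIN, at -0.58 ± 0.11 (SE, adjusted p = 0.001), both by limma. CLSPN, the claspin adaptor of checkpoint signalling, was also lower (-0.45, adjusted p = 0.009 by limma), as were the exonuclease EXO1 (-0.42, adjusted p = 0.006) and the helicase BLM (-0.38, adjusted p = 0.017). BRIP1, a helicase that binds BRCA1, was the 1 gene of the 10 in this role that was higher in number 2 (0.46, adjusted p = 0.007 by limma). UNG was called for replicate number (adjusted p = 0.034 by limma's F-test). RAD51AP1, UNG, USP1 and DTL were not called for number 2, and lay between -0.23 and 0.03 log2 units. Without vector replicate 2 the adjusted p was 0.161 for CLSPN, 0.110 for EXO1, 0.221 for BLM and 0.0725 for BRIP1. Without overexpression replicate 2 it was 0.0935 for BLM and 0.0684 for BRIP1, and without vector replicate 3 it was 0.0750 for BLM. EXO1 lay at 14.4, 9.16 and 11.7 FPKM in vector and at 15.6, 10.7 and 13.3 FPKM in overexpression, so that overexpression was higher within each number while the groups overlapped (0.16 ± 0.21 log2 units, SE, adjusted p = 1.0 by limma).

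Chromatin and histone supply genes held 4 of the 9 higher calls. That is 4 of the 10 genes in this role, where 29.4% of all loci were called higher. With TMM factors 20.5% of all loci were called higher. CASP8AP2, WDR76 and UBR7 then lost the call (adjusted p = 0.111, 0.0913 and 0.125 by limma), and HELLS kept it. HELLS, a chromatin remodeller needed for DNA methylation, lay at 17.8, 29.7 and 18.6 FPKM in vector replicates 1 to 3 and at 19.9, 27.5 and 20.6 FPKM in overexpression. Both number 2 libraries stood above the other 4, by 0.55 ± 0.10 log2 units (SE), with an adjusted p of 0.002 by limma (0.0657 without vector replicate 2). CASP8AP2, a nuclear protein needed for histone gene expression, lay at 2.09, 3.85 and 3.58 FPKM in vector and at 0.95, 3.67 and 3.84 FPKM in overexpression. Its low libraries were the 2 numbered 1, and numbers 2 and 3 overlapped. It was called higher in number 2 at 0.48 ± 0.16 log2 units (SE, adjusted p = 0.033 by limma), which became 0.01 without both number 1 libraries. Leaving out overexpression replicate 1 gave CASP8AP2 an adjusted p of 0.0534; for overexpression replicate 2 it was 0.213 and for vector replicate 3 0.123. WDR76 (0.41, adjusted p = 0.012) and UBR7 (0.37, adjusted p = 0.017), a reader of modified histones, were called higher by limma. SLBP, which binds the stem-loop of replication-dependent histone mRNAs, was called lower (-0.27, adjusted p = 0.039 by limma). Without vector replicate 2 the adjusted p was 0.0600 for WDR76, 0.374 for UBR7 and 0.319 for SLBP. Without overexpression replicate 2 it was 0.164 for WDR76 and 0.191 for SLBP, without vector replicate 3 it was 0.0513 for UBR7 and 0.0971 for SLBP, and without overexpression replicate 3 it was 0.0745 for SLBP.

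UHRF1, which brings the maintenance methyltransferase DNMT1 to new DNA, had the lowest group estimate of the 45 genes. It lay at 15.6, 12.2 and 17.7 FPKM in vector replicates 1 to 3 and at 9.48, 12.4 and 16.5 FPKM in overexpression. Overexpression replicate 1 was the lowest library, while overexpression replicate 2 exceeded vector replicate 2. The estimate of -0.25 ± 0.23 log2 units (SE) had an adjusted p of 1.0 by limma. The histone chaperones CHAF1B and NASP, with ATAD2 and CDCA7, were not called for number 2 (-0.21 to 0.19 log2 units), and NASP was the steadiest of these, at 76.9 to 84.2 FPKM.

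**Figure D4:**
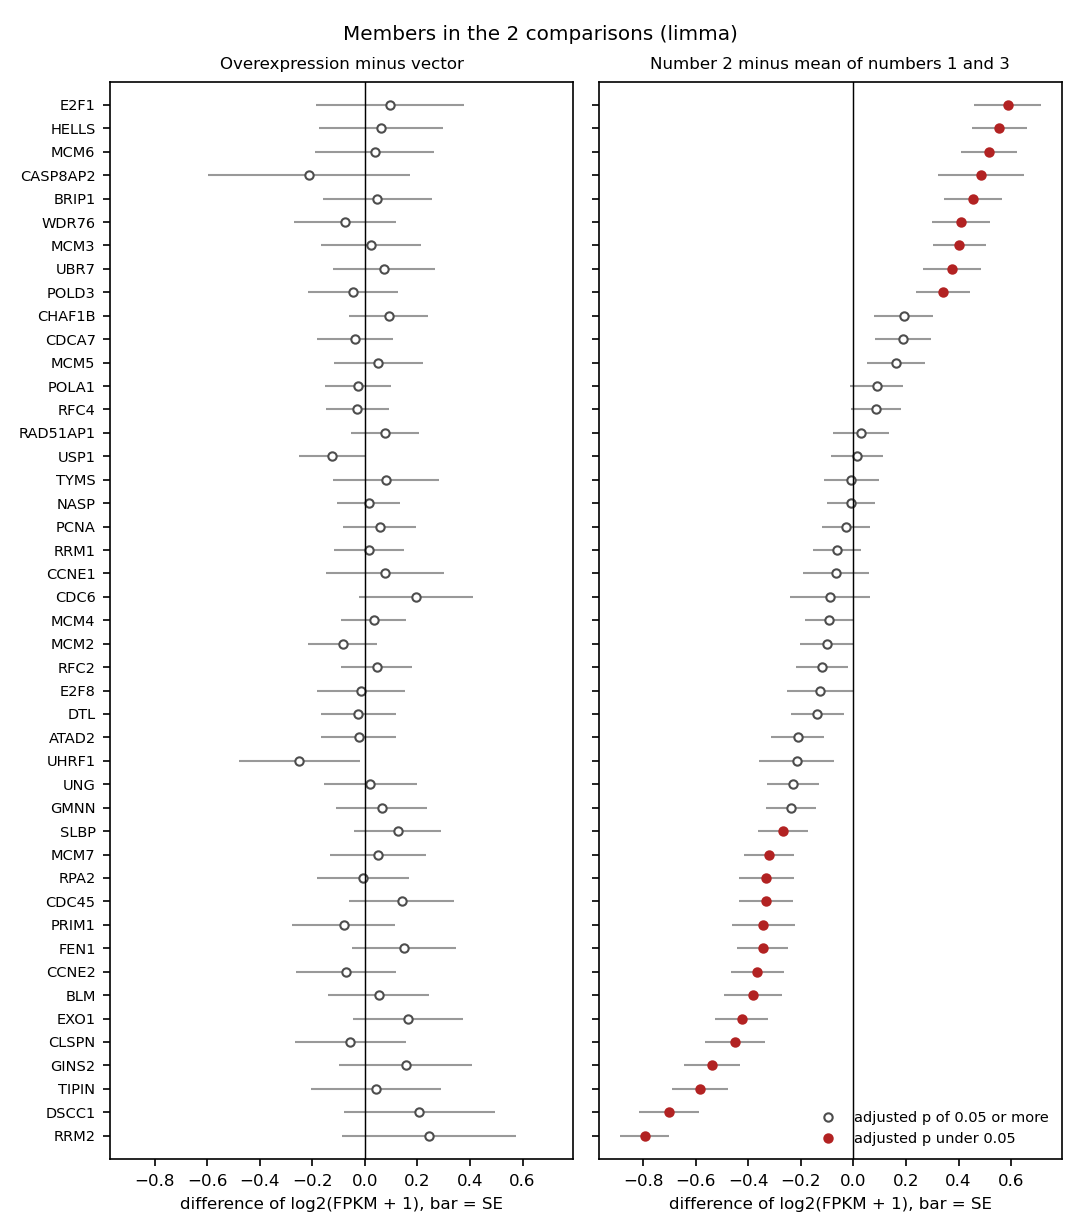
Differences of log2(FPKM + 1) with their SE for the 45 genes, overexpression minus vector on the left and number 2 minus the mean of numbers 1 and 3 on the right; filled points have an adjusted p under 0.05 (limma, Benjamini-Hochberg over all loci). The left panel has 0 filled points, and the right has 9 above and 14 below 0, from 0.59 (E2F1) to -0.80 (RRM2).

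**Figure D5:**
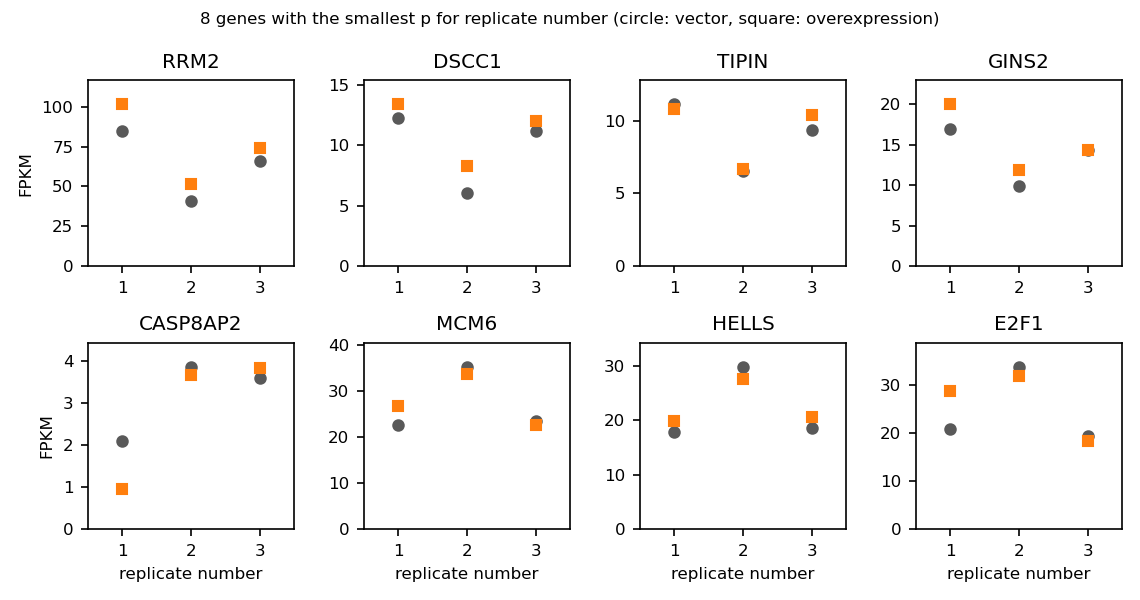
FPKM (vertical axis, from 0) by replicate number (horizontal axis) of the 8 genes with the smallest p for replicate number; circles are vector and squares overexpression. RRM2, DSCC1, TIPIN and GINS2 are lowest at number 2 in both groups, MCM6, HELLS and E2F1 are highest there, and CASP8AP2 is low at number 1 alone.

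Genes of the same pathways that are outside the 45 were counted from fixed lists. None was called for overexpression against vector by limma over all 6 libraries, with or without the block, in any of 6 lists that together hold 36 other replication genes, 19 G1 cyclins, kinases, inhibitors and pocket proteins, 8 other E2F and DP factors, 13 nucleotide supply genes, 11 chromatin assembly genes and 36 G2 and mitosis genes. At an unadjusted p under 0.05 there were 0 in each list without the block and, with it, 4 replication genes, 1 G1 gene and 1 nucleotide gene. With the block, 868 of all loci (7.19%) and 1 of the 45 genes (2.22%) were under that value. RPA3, the small subunit of the single-strand binding protein, lay at 21.3, 22.0 and 16.6 FPKM in vector and at 35.2, 22.1 and 24.6 FPKM in overexpression (0.41 ± 0.21 log2 units, SE, adjusted p = 1.0 by limma, 0.521 with the block). All 3 RPA3 overexpression values lay above the vector values, the number 2 libraries by little. RPA3 was called with library weights (0.56, adjusted p = 0.026 by limma), a fit that called 346 loci, and in the blocked fit without both number 2 libraries (0.62, adjusted p = 0.0055), which called 148 loci. CDKN1A, the p21 inhibitor, had 0.34 log2 units and TK1, thymidine kinase, 0.27, and the groups overlapped for both; CDKN1A was called in that same blocked fit without both number 2 libraries (0.51, adjusted p = 0.035 by limma). Of the other genes named by the rule, the group estimates were 0.30 for DONSON, 0.16 for CDK2, -0.25 for TFDP2, -0.20 for MMS22L and -0.15 for AURKA. Those of E2F5 (0.09), ASF1B (0.11) and CENPE (-0.19) turned sign with library weights. None of the 8 was called as reported; with library weights, DONSON (0.36, adjusted p = 0.036 by limma) was called higher and TFDP2 (-0.63, adjusted p = 0.037) lower.

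For number 2 against numbers 1 and 3, 4 of the 36 other replication genes were called higher and 11 lower, among them POLE3, a small polymerase epsilon subunit (-0.89 log2 units), and ORC6 of the origin recognition complex (-0.62). Of the 13 nucleotide supply genes, 1 was called higher and 7 lower, with CAD (-0.74) and CTPS1 (-0.65), both of pyrimidine synthesis. Of the 19 G1 control genes, 10 were called higher and 4 lower, with CDKN1C, the p57 inhibitor (1.14), and RBL2, the p130 pocket protein (0.92). Among the E2F and DP factors 1 was called higher, E2F2 (0.99), and 2 lower, among them E2F7 (-0.40; adjusted p = 0.011 by limma, 0.220 without vector replicate 2). Of the 11 chromatin assembly genes, 3 were called in each direction, with CBX5, the HP1 alpha protein (0.88), higher and ASF1A, a histone chaperone (-0.48; adjusted p = 0.005 by limma, 0.084 without vector replicate 2), lower. Of the 36 G2 and mitosis genes, 5 were called higher and 7 lower, with TOP2A, the topoisomerase of mitotic chromosomes (0.77), higher and CDC20, the activator of the anaphase-promoting complex (-0.97), lower. The shares called were 41.7% of the other replication genes, 61.5% of the nucleotide genes, 73.7% of the G1 genes, 37.5% of the E2F and DP factors, 54.5% of the chromatin assembly genes and 33.3% of the G2 and mitosis genes, against 50.3% of all loci.

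Members called higher and lower in number 2 were also set side by side for features outside the comparison. The median exon length was 4118 bases for the 9 higher genes, 3055 bases for the 14 lower and 4220 bases for the 22 not called, beside 5112.5 bases for all tested Ensembl genes. The median GC content of the longest transcript was 43.0%, 45.3% and 45.5% in the same order, beside 48.3% overall. Across the 45 genes, Spearman's rho of the number 2 difference with exon length was 0.23, and across 11166 tested Ensembl genes it was 0.20. With GC content these were -0.10 and -0.02. The genes share their 6 libraries and are not independent replicates, so the values are descriptions. Of the 45 genes, 18 share exon bases with another annotated gene. For 7 the share is over 10% of their own exon bases: TYMS 39.1%, CCNE2 37.0%, MCM2 22.7%, TIPIN 21.0%, RRM2 20.2%, PRIM1 14.9% and UBR7 13.8%. How fragments in the shared bases were counted is not stated, so the levels of these genes are less certain.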

How the data were processed

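TRIzol was used for RNA extraction, per the labels' protocols, and libraries were made from purified, fragmented mRNA with a NEBNext Ultra kit. The submitters' processing notes name HISAT2 and GRCh38. Counting tool, annotation, versions and use of strand were not given in the sources used here. Loci in the authors' deposited FPKM table numbered 27328, 19974 of them with Ensembl identifiers, all in GENCODE release 29, which gave positions and lengths. Low values showed no whole-read steps, so no counting error can be given.

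Loci that reached 1 FPKM in 3 or more libraries were kept (12064). log2(FPKM + 1), which understates changes of low genes, was fitted with limma 3.58.1 under R 4.3.3, using eBayes with a trend and 2-sided tests. Group was the only term; replicate number was tested with group in the model. The call threshold was an adjusted p of 0.05. An exact test of 3 against 3 cannot go below 0.1. Deviations from the group means correlated between same-numbered libraries at 0.725, 0.881 and 0.529 over all tested loci, above the limit of 0.1, so the numbers were taken to pair the libraries, on these values and not the labels. Across groups, numbers 1 and 3 correlated with each other at 0.412 and 0.424, also above 0.1. That limit thus does not tell these numbers apart. Number 2 correlated with the other numbers at -0.552 to -0.818. Within a group the deviations of a gene cancel out, so these negative values are in part set by the calculation.

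The members and lists were chosen with earlier results of these data known. Values are given in every library for MCM2 to MCM7, CCNE1, CCNE2, E2F1 and E2F8, for the 3 members per direction with the smallest group p and for the 8 with the smallest p for replicate number; other genes named serve as examples of their role. RRM2 in the group comparison, PCNA, TYMS and the shares by list were added after their values were seen. From each neighbouring list, the 2 genes with the smallest p per comparison were named; 1 of them is not reported here. Alternatives were pseudocounts of 0.1 and 0.5, no filter, a mean FPKM of at least 5, TPM, TMM, quantile scaling, no trend, library weights, the block, no group term, and libraries left out. The group, block and number 2 fits were tested on simulated data with independent noise per library and planted differences of 1 and 2 log2 units. Recovery of smaller differences, such as the group estimates above, was not tested.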

Additional observations from a re-analysis of the deposited data

How the results depend on the processing

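No member was called for overexpression against vector under any alternative, the replicate block included (0), and the block changed no other call of a member; library weights called 346 loci and 0 members. The median group difference ranged from -0.02 to 0.07 with libraries left out. Genes with all overexpression libraries higher numbered 0 to 4 with libraries left out, where the share over all loci went from 4.41% to 9.82%; those with all lower numbered 0 with TMM factors, 0 with quantile scaling and 1 to 2 with libraries left out (1.68% to 6.05% of loci). For replicate number, 24 members were called, 7 without the filter (14.6% of loci), and 3 to 27 with libraries left out (3.71% to 51.2% of loci), where few residual degrees of freedom remain. For number 2, TMM factors gave 4 higher, 22 lower and a median of -0.26; leaving out libraries gave 2 to 9 higher, 4 to 16 lower and medians of -0.19 to -0.04. The cause was not tested. Signs turned as follows. With library weights, group differences turned to -0.21 (CDC6), -0.00651 (ASF1B), -0.10 (E2F5) and 0.00359 (CENPE), and for MCM2 to 0.00904 in the replicate block without replicate 3. With libraries left out they ranged from -0.00763 to 0.40 for CDC6, from -0.00286 to 0.27 for FEN1 and from -0.00674 to 0.21 for ASF1B. Number 2 differences turned to 0.00298 for CCNE1 with TPM, 0.0408 for MCM2 and 0.0393 for MCM4 with quantile scaling, and -0.00924 for MCM5 with TMM factors; with libraries left out they ranged from -0.34 to 0.21 for CCNE1 and from -0.26 to 0.00212 for E2F8. A mean FPKM of at least 5 left 43 members, without CASP8AP2 and E2F8. Depth is unknown, so what it limits cannot be stated.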
